A study of Arabidopsis thaliana with 24 samples.

Results

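The 37 genes described here are the 29 loci of the Aux/IAA family of Arabidopsis thaliana and 8 loci of the GH3 family, GH3.1 to GH3.6, GH3.9 and GH3.17. They were chosen by family membership and matched by locus name to the 33977 gene identifiers of the count tables, and all 37 were found there. RNA was measured by 3′Tag-Seq, which sequences a fragment at the 3′ end of each transcript, so that counts do not grow with transcript length. The 24 libraries form 8 groups of 3 biological replicates, the root and the shoot of hy5-215 and of wild-type Col-0, at 28 °C or at 22 °C. By the labels, seedlings stayed in white light without dark periods at 22 °C for 5 days and then spent 4 h at 28 °C or a further 4 h at 22 °C, although the series description names a longer time at temperature and the study's methods give older seedlings. The above-ground samples are labelled as hypocotyl and are called shoot in the study, and they are called shoot here. Col-0 is the laboratory wild type, and hy5-215 is a mutant allele of HY5 in that background, here a line with 1 allele. HY5 is a bZIP transcription factor that promotes light-dependent seedling development.

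Aux/IAA proteins are short-lived repressors. They bind ARF transcription factors and hold them inactive with the help of TOPLESS corepressors. When auxin is present, it joins a short stretch of the Aux/IAA protein, the degron of domain II, to an F-box receptor of the TIR1/AFB family, and the repressor is ubiquitinated and degraded. GH3 enzymes of the kind studied here attach amino acids to auxin, which removes it from the active pool. Many Aux/IAA and GH3 genes are themselves transcribed in response to auxin, and for this reason their transcripts are commonly read as a record of auxin response in seedlings.

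Total counts were between 1212281 and 3781032 per library, and the 37 genes together took 0.148% to 0.226% of them. HY5 transcript was still counted in the mutant, at 8.02 to 17.4 CPM (the count scaled by library size and TMM factor) in hy5-215 roots against 44.9 to 63.0 CPM in Col-0 roots, and at 7.99 to 24.7 CPM in hy5-215 shoots against 15 to 32.9 CPM in Col-0 shoots. Within each organ and temperature, all 3 libraries titled hy5-215 were below all 3 titled Col-0, narrowly so in shoots at 28 °C (14.9 CPM for the highest hy5-215 library). This bears on the labels, because a genotype field contradicts the titles, and the groups follow the titles. The 6 shoot markers fixed for the check (RBCS1A, LHCB1.3, LHCB2.1, PSAD1, GLK2 and FAMA) summed to 304 to 741 CPM in root libraries and 27089 to 51319 CPM in shoot libraries, and the 6 root markers (EXPA7, COBL9, BGLU23, NRT2.1, CASP1 and WER) to 3626 to 6155 CPM in root libraries and 1063 to 2082 CPM in shoot libraries. All 12 markers averaged higher in their own organ, and NRT2.1 was at 0 in every shoot library. The root marker signal in shoots came with BGLU23, which kept 34.6% of its root level there.

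The degron and the promoters are shown as context for the members described, and no relation of these sequences to the changes was tested. Of the 29 Aux/IAA genes, 23 hold codons for the degron core Gly-Trp-Pro-Pro in the TAIR10.1 coding sequence, and they are called canonical here. The 6 that lack it (IAA20, IAA30, IAA31, IAA32, IAA33 and IAA34) are called non-canonical. The coding DNA around the core is shown for 8 canonical members described below, read from the RefSeq TAIR10.1 genome on the coding strand, with the codons of the core in capitals.
IAA29, chr4:15583942-15583977: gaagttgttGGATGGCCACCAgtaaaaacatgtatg
IAA19, chr3:5264307-5264342: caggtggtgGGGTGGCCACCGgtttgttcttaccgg
IAA2, chr3:8181381-8181416, minus strand: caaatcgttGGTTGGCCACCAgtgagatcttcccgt
IAA1, chr4:8361436-8361471: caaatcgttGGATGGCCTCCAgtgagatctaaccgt
IAA4, chr5:17550740-17550775: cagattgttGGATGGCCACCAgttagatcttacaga
IAA7, chr3:8195568-8195603: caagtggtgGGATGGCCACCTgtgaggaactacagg
IAA17, chr1:1136938-1136973: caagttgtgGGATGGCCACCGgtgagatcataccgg
IAA28, chr5:9033812-9033847: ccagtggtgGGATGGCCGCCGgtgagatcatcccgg
All 8 stretches are exonic and lie within 1 exon each, and the codons of the core differ between them only in the last base of a codon.

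The promoters of the 3 members called at 28 °C in Col-0 shoots (IAA29, IAA19 and GH3.2) and of the 2 that passed the interaction of genotype and temperature in the shoot (GH3.5 and IAA2) are shown as the 250 bases before the annotated gene start in TAIR10.1. Both strands were searched for TGTCTC and TGTCGG, which are auxin response elements bound by ARF factors, for the G-box CACGTG, which is bound by bZIP and bHLH factors such as HY5 and the PIFs, and for CACATG, which PIFs also bind. Matches on either strand are in capitals.
IAA29, chr4:15583082-15583331: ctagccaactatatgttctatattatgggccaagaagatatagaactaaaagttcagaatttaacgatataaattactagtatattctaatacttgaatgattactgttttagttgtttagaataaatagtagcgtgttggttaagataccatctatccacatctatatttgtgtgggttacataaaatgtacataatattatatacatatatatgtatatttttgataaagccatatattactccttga
IAA19, chr3:5263751-5264000: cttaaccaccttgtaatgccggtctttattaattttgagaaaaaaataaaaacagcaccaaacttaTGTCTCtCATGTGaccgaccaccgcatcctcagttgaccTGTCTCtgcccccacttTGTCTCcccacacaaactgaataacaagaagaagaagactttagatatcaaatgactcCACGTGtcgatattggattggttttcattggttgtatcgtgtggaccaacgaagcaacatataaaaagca
GH3.2, chr4:17579368-17579617: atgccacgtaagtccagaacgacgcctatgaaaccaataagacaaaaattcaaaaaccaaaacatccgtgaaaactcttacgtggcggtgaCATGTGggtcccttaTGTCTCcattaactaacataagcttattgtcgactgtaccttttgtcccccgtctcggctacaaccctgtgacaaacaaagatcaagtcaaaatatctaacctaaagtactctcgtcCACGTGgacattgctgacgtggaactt
GH3.5, chr4:13653329-13653578: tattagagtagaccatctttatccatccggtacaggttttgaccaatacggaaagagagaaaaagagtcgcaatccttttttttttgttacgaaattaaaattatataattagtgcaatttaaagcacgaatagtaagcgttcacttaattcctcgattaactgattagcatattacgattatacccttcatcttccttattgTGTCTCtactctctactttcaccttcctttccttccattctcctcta
IAA2, chr3:8182096-8182345, minus strand: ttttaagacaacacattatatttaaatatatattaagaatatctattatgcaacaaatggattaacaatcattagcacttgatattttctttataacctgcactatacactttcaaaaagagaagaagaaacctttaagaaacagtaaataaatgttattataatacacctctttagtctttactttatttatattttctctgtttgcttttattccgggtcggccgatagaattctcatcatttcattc
The IAA19 window holds 3 matches to TGTCTC, 1 G-box and 1 CACATG, and the GH3.2 window holds 1 of each. The GH3.5 window holds 1 TGTCTC, and the IAA29 and IAA2 windows hold no match to these letters. Over all members, TGTCTC was present in 12 of 37 windows (32.4%), against 10.9% of the 27444 windows of protein-coding genes, TGTCGG in 6 (16.2%, against 4.16%), the G-box in 5 (13.5%, against 6.49%) and CACATG in 8 (21.6%, against 11.1%). The shorter ACGT, which lies inside the G-box, was present in 15 of 37 windows (40.5%, against 44.1%). A match describes the letters in a window and not a bound site.

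The members differed widely in level. Over the 12 shoot libraries, IAA7 (AXR2, AT3G23050, chr3:8194606-8197161) was the most abundant with a mean of 414 CPM and a range of 306 to 633 CPM, followed by IAA8 with a mean of 269 CPM and a range of 217 to 320 CPM. Over the 12 root libraries, IAA9 was the most abundant with a mean of 329 CPM and a range of 272 to 371 CPM, followed by IAA8 with a mean of 142 CPM and a range of 107 to 170 CPM. IAA8 and IAA9 are paralogous Aux/IAA repressors. At least 10 counts were reached in every library of the organ by 20 members in the root and 21 in the shoot, and 4 members of each organ stayed at the floor of 3 counts or fewer in every library. These were IAA5, IAA15, GH3.4 and GH3.9 in the root, and IAA15, IAA33, GH3.1 and GH3.4 in the shoot. GH3.4 had 0 counts in all 24 libraries. The last 300 bases of GH3.4 matched a stretch that overlaps the GH3.2 gene, at 90.8% identity over 294 bases. The same search from the end of GH3.2 found no copy, nor did that of any other member. Whether reads of this pair were mixed was not tested. GH3.9 had 0 counts in the 12 root libraries and 2 to 11 counts in the shoot libraries. Of the 37 members, 28 passed the filter on low counts in at least 1 comparison, and 9 (IAA5, IAA6, IAA15, IAA20, IAA32, IAA33, IAA34, GH3.4 and GH3.9) passed it in none. A gene that overlaps on the other strand is annotated for IAA3, IAA5, IAA9, IAA10, IAA11, IAA13, IAA27, IAA32 and GH3.9, and a gene on the same strand overlaps IAA34, so reads of such a neighbour may be included, since the use of strand in counting is not given in the sources used here.

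**Figure D1:**
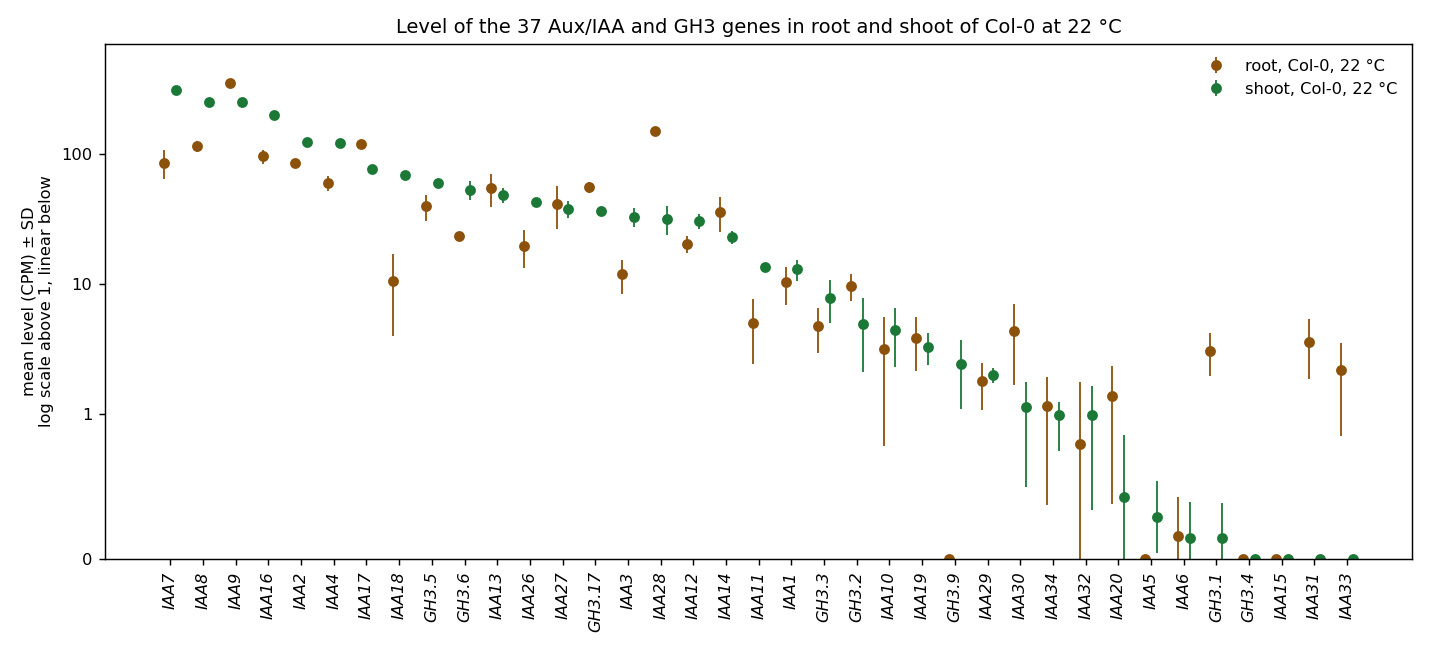
Mean level of each of the 37 genes in Col-0 root and shoot at 22 °C, in CPM with SD over 3 libraries, on an axis that is logarithmic above 1 and linear below. IAA28 stands out above its shoot level in the root (149 against 31.7 CPM), and IAA7 and IAA18 below it.

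The same members were compared between root and shoot of Col-0 at 22 °C. Of the members, 10 of the 23 tested were called between root and shoot, meaning a 2-fold or larger difference with an adjusted p up to 0.05 in edgeR's quasi-likelihood test, where 41.5% of all genes tested were called (17.4% as higher and 24.1% as lower in the root). The share of members is therefore close to that of all genes. IAA28, a repressor known for its role in lateral root formation, was the called member higher in the root, at 156, 145 and 147 CPM in root and 34.4, 37.8 and 22.8 CPM in shoot (log2 fold change 2.26, SE 0.15, adjusted p 1.11e-12). The 9 called members lower in the root were IAA18, IAA7, IAA3, IAA11, GH3.6, IAA26, IAA8, IAA16 and IAA4. Among these, IAA18 had 6.10, 7.5 and 18.1 CPM in root and 68.8, 70.4 and 66.6 CPM in shoot (log2 fold change −2.76, SE 0.24, adjusted p 1.25e-10). IAA7, a repressor known from its dominant auxin-resistant allele, had 109, 81.5 and 66.4 CPM in root and 307, 318 and 306 CPM in shoot (log2 fold change −1.82, SE 0.13, adjusted p 5.22e-12). Neither gene had overlapping groups. By the adjusted p alone, 6 members were higher and 12 lower in the root, where 62.8% of all genes passed (30.6% higher and 32.2% lower). With library size alone in place of TMM, the median log2 fold change of all genes was 0.48 (0.01 with TMM), and the calls among the members became 5 higher and 3 lower in the root, with IAA28, IAA18, IAA7 and IAA3 called in both fits. Leaving out root replicate 2 took IAA16 and IAA26 below 2-fold (log2 fold changes −0.95 and −0.98), and IAA4 was below 2-fold without root replicate 1, root replicate 2 or shoot replicate 2 (−0.95 to −0.99).

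In the shoot of Col-0, the members that passed the test were all higher at 28 °C than at 22 °C. Of the 24 members tested, 9 rose (IAA2, IAA3, IAA7, IAA13, IAA16, IAA19, IAA29, GH3.2 and GH3.5) and none fell, where 25.0% of all genes changed by the adjusted p (11.5% rose and 13.5% fell). With the 2-fold cutoff, IAA29, IAA19 and GH3.2 were called, where 5.31% of all genes were called in either direction and 2.15% as higher. The log2 fold change was positive in 20 of the 24, with a median of 0.28 beside 0.01 over all genes tested. IAA19 and IAA29 passed the filter on low counts only through their 28 °C libraries. Fewer cells of a type and less RNA per cell cannot be told apart in such bulk samples.

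IAA29 (AT4G32280, chr4:15583332-15584903) had the largest change among the 24 members tested, while IAA31 and IAA6, which had few counts, had larger fitted values when the filter was dropped (4.50 and 3.52, against 2.84 for IAA29). IAA29 encodes a canonical repressor whose gene is a known target of PIF factors in shade and warmth. It had 15.2, 10.7 and 18.2 CPM at 28 °C (33, 25 and 42 counts) and 2.15, 2.15 and 1.69 CPM at 22 °C (5, 5 and 4 counts). All 28 °C libraries lay far above all 22 °C libraries, with a log2 fold change of 2.84 and an SE of 0.37 (adjusted p 1.87e-06 in edgeR). Leaving out each library in turn gave 2.66 to 3.04, and the call was kept in all 6 fits.

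IAA19 (MSG2, AT3G15540, chr3:5264001-5265695), known for its role in hypocotyl growth and tropisms, had 4.61, 9.83 and 13.9 CPM at 28 °C and 4.30, 2.58 and 2.95 CPM at 22 °C. The lowest 28 °C library was just above the highest 22 °C library. Its log2 fold change was 1.52 (SE 0.40, adjusted p 0.00624), and the call was lost without 28 °C replicate 3 (log2 fold change 1.14, adjusted p 0.0697). GH3.2 (AT4G37390, chr4:17579618-17582022), which encodes an auxin-amido synthetase, had 10.6, 12.8 and 11.3 CPM at 28 °C and 1.72, 6.01 and 7.17 CPM at 22 °C. The groups did not overlap, but 1 library at 22 °C held only 4 counts. Its log2 fold change was 1.21 (SE 0.35, adjusted p 0.0114), and the call was lost without 22 °C replicate 1 (0.81, adjusted p 0.0805) or without 28 °C replicate 2 (1.13, adjusted p 0.0573), and in DESeq2 (adjusted p 0.0591).

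The other 6 that rose did so by less than 2-fold. GH3.5 (WES1, AT4G27260, chr4:13653579-13656285), an enzyme that conjugates auxin, had 90.0, 111 and 129 CPM at 28 °C and 61.5, 55.0 and 63.3 CPM at 22 °C (log2 fold change 0.88, SE 0.13, adjusted p 1.01e-05). IAA2 (AT3G23030, chr3:8180646-8182095) had 172, 206 and 255 CPM at 28 °C and 132, 122 and 116 CPM at 22 °C (0.77, SE 0.12, adjusted p 2.51e-05). IAA7 had 437, 515 and 633 CPM at 28 °C and 307, 318 and 306 CPM at 22 °C (0.76, SE 0.11, adjusted p 9.26e-06). None of these 3 had overlapping groups, and each rose in all 6 fits that left out a library. IAA3 (SHY2; 0.55, adjusted p 0.0244), IAA13 (0.49, adjusted p 0.0087) and IAA16 (0.38, adjusted p 0.00645) depended on single libraries. IAA3 was over the threshold without 22 °C replicate 1, 22 °C replicate 2 or 28 °C replicate 3 (adjusted p 0.0521 to 0.248), IAA13 without 22 °C replicate 1 or 28 °C replicate 2 (0.0677 and 0.0766), and IAA16 without 22 °C replicate 3 (0.0515). In DESeq2, IAA3 and IAA13 did not pass (adjusted p 0.109 and 0.0553). The 15 members that did not pass had log2 fold changes of −0.35 (IAA27) to 0.40 (IAA14).

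**Figure D2:**
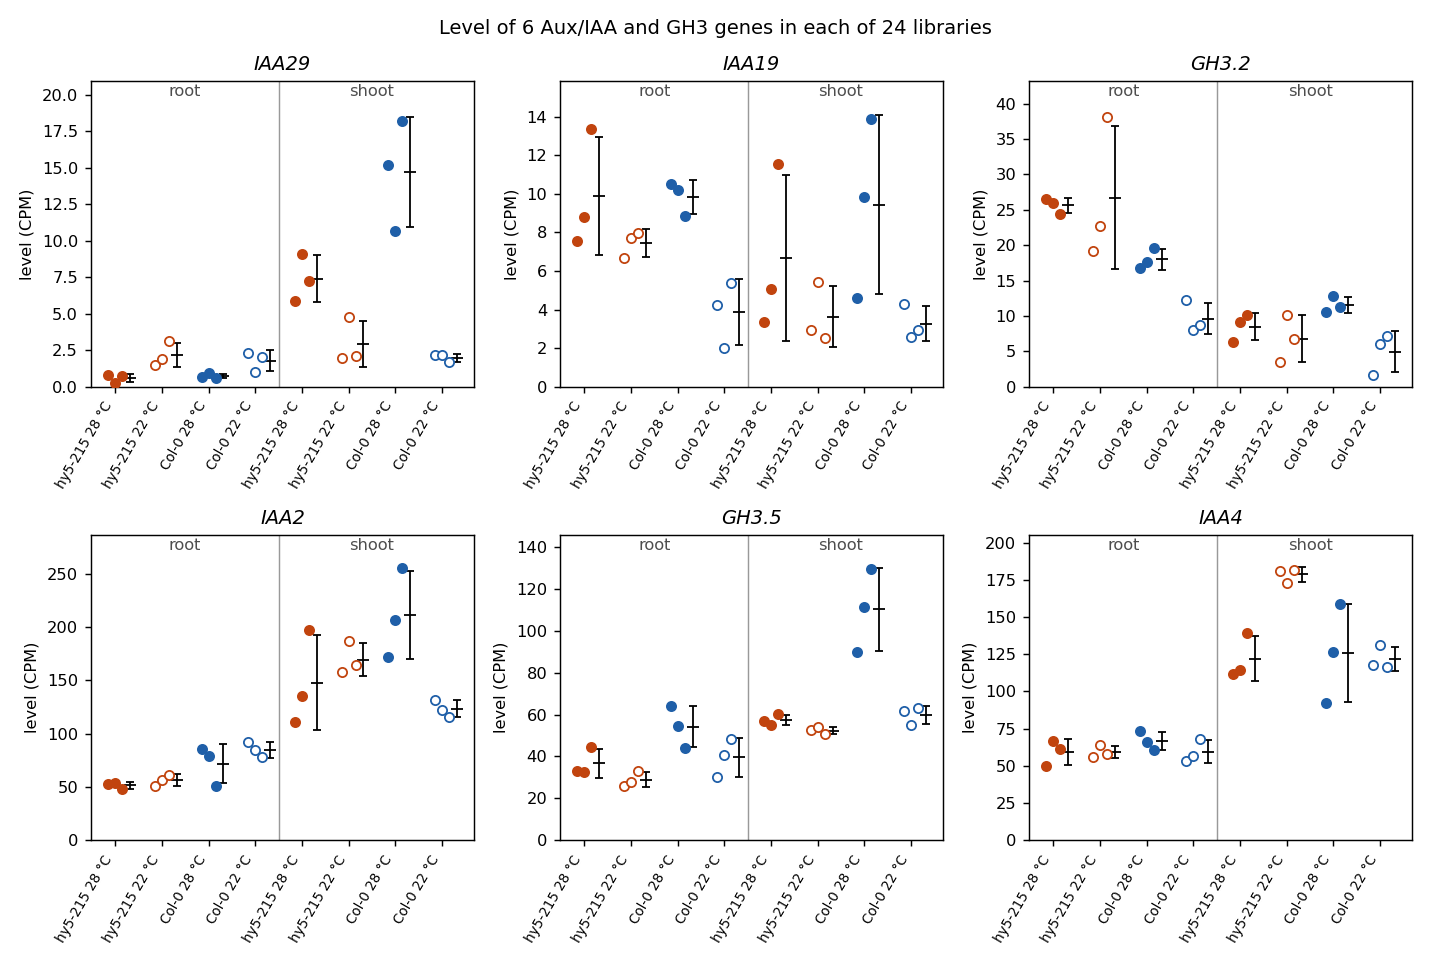
Level in CPM of IAA29, IAA19, GH3.2, IAA2, GH3.5 and IAA4 in every library, root groups left of shoot groups. Filled points are 28 °C and open points 22 °C, orange is hy5-215 and blue Col-0, and bars give the mean and SD of 3 libraries. The Col-0 shoot libraries at 28 °C are the highest of all groups for IAA29 (10.7 to 18.2 CPM), while GH3.2 is highest in hy5-215 roots.

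Among the 3 Col-0 shoot libraries at 28 °C, replicate 1 was the lowest for 18 of the 24 members tested and replicate 3 the highest for 18. The summed level of the 37 genes was 2088 CPM in replicate 1, 2369 CPM in replicate 2 and 2677 CPM in replicate 3 at 28 °C, against 1810 to 1875 CPM at 22 °C. In the same libraries the 6 shoot markers, most of them photosynthesis genes, summed to 37056, 32830 and 27089 CPM at 28 °C, against 38571 to 42905 CPM at 22 °C. Taken singly, 3 of the 6 shoot markers had a positive log2 fold change and 3 a negative one. By the adjusted p, 2 shoot markers rose and 1 fell. The 6 root markers summed to 1728, 1595 and 1408 CPM at 28 °C, against 1389 to 1422 CPM at 22 °C. The part of these differences between libraries in the members' changes was not tested. Without replicate 1, GH3.5 and IAA34 joined IAA29, IAA19 and GH3.2 among the members called.

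Some members with few counts were also higher at 28 °C in Col-0 shoots, and they are named after their values were seen. The non-canonical IAA34 had 8, 14 and 10 counts at 28 °C and 3, 2 and 2 counts at 22 °C. IAA20, also non-canonical, had 5, 7 and 10 counts at 28 °C and 0, 2 and 1 counts at 22 °C. IAA6 (SHY1) had 5 counts in each library at 28 °C and 1, 0 and 0 counts at 22 °C, and IAA31 had 4, 2 and 2 counts at 28 °C and 0 in all 3 libraries at 22 °C. None of these 4 passed the filter. When the filter was dropped, all 4 were called with adjusted p of 0.00376 (IAA34), 0.0066 (IAA20), 0.0139 (IAA6) and 0.0449 (IAA31). This made 7 of 35 members called, where 1046 of all 22940 genes tested were called. IAA34 was also called in DESeq2 (adjusted p 0.0442) and in 4 of the 6 fits that left out a library, the ones without 22 °C replicate 1, 2 or 3 or without 28 °C replicate 1, and IAA31 in the joint fit of all 24 libraries (adjusted p 0.021). In hy5-215 shoots IAA34 had 7, 3 and 8 counts at 28 °C and 1, 3 and 3 counts at 22 °C, and IAA20 had 0, 0 and 1 counts at 28 °C and 0, 2 and 1 counts at 22 °C. IAA6 had 1, 7 and 4 counts at 28 °C and 0, 1 and 0 counts at 22 °C there, and IAA31 had 1, 1 and 0 counts at 28 °C and 1, 0 and 0 counts at 22 °C.

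In the shoot of hy5-215, 5 members passed the test at 28 °C against 22 °C. Of the 25 members tested, IAA29 rose, and IAA1, IAA4, IAA18 and GH3.6 fell, where 16.9% of all genes changed by the adjusted p (7.54% rose and 9.32% fell). IAA29 alone was called with the 2-fold cutoff, where 3.59% of all genes were called (1.77% as higher). IAA19 and IAA29 passed the filter on low counts through 1 temperature only. The median log2 fold change of the members was −0.09 beside 0.01 over all genes, and 11 of the 25 were positive. IAA29 had 5.90, 9.08 and 7.23 CPM at 28 °C (14, 25 and 15 counts) and 1.96, 4.75 and 2.13 CPM at 22 °C (4, 14 and 5 counts). Its groups did not overlap (log2 fold change 1.26, SE 0.40, adjusted p 0.0296). This call was lost without 22 °C replicate 1, 22 °C replicate 3 or 28 °C replicate 2 (adjusted p 0.118 to 0.174) and in DESeq2 (0.142).

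IAA4 (AT5G43700, chr5:17550179-17551715) and IAA1 (AT4G14560, chr4:8360996-8362033), a pair of auxin-inducible Aux/IAA genes, were the clearest that fell. IAA4 had 112, 114 and 139 CPM at 28 °C and 181, 173 and 181 CPM at 22 °C in hy5-215 shoots (log2 fold change −0.55, SE 0.10, adjusted p 0.000521). IAA1 had 20.6, 19.6 and 18.8 CPM at 28 °C and 28.0, 31.2 and 32.7 CPM at 22 °C (−0.63, SE 0.17, adjusted p 0.0106). Neither gene's groups overlapped, and both fell in all 6 fits that left out a library, whereas IAA1 did not pass in DESeq2 (adjusted p 0.0767). IAA18 (−0.35, adjusted p 0.0471) passed only without 28 °C replicate 3 among the 6 fits that left out a library, and GH3.6 (−0.48, adjusted p 0.0414) only without 22 °C replicate 3 or 28 °C replicate 3. Both failed in 4 of 6 other alternatives, which were DESeq2, library size alone, the replicate block and the joint fit (adjusted p 0.0761 to 0.179 for IAA18 and 0.0547 to 0.117 for GH3.6), and passed with no filter and with a minimum mean of 10 counts. IAA19 had 3.37, 5.09 and 11.6 CPM at 28 °C and 2.95, 5.43 and 2.55 CPM at 22 °C, with overlapping groups (0.77, SE 0.44, adjusted p 0.267). GH3.2, GH3.5 and IAA2 had log2 fold changes of 0.26, 0.14 and −0.20 and did not pass. The 6 shoot markers summed to 39780 to 40042 CPM at 28 °C against 49109 to 51319 CPM at 22 °C in these shoots. Taken singly, 3 of them had a positive log2 fold change and 3 a negative one, and by the adjusted p 2 rose and 2 fell. The 6 root markers summed to 1972 to 2082 CPM at 28 °C against 1063 to 1328 CPM at 22 °C. The part of the markers in the changes was not tested.

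The genotypes were compared directly at each temperature, in fits that share their libraries with the temperature comparisons. At 22 °C, 8 of the 23 members tested were higher in hy5-215 shoots than in Col-0 shoots and none was lower, where 9.35% of all genes differed by the adjusted p (5.11% higher and 4.24% lower). The 8 were IAA1, IAA2, IAA3, IAA4, IAA7, IAA8, IAA14 and IAA17, and 0 of the 6 non-canonical genes passed the filter on low counts there. IAA1 alone was called with the 2-fold cutoff, where 1.73% of all genes were called (0.695% as higher). It had 28.0, 31.2 and 32.7 CPM in hy5-215 and 12.9, 15.5 and 10.5 CPM in Col-0 shoots at 22 °C (log2 fold change 1.24, SE 0.20, adjusted p 8.31e-06), without overlap. IAA4 had 181, 173 and 181 CPM in hy5-215 and 118, 131 and 116 CPM in Col-0 (0.54, SE 0.09, adjusted p 2.46e-05), also without overlap. The others were IAA3 (0.71, adjusted p 0.00047), IAA14 (SLR; 0.69, adjusted p 0.00506), IAA17 (AXR3; 0.48, adjusted p 0.00195), IAA2 (0.46, adjusted p 0.000555), IAA7 (0.27, adjusted p 0.0178) and IAA8 (0.25, adjusted p 0.0414). With library size alone, which lowered the median of all genes by 0.10 log2, IAA7 and IAA8 did not pass (adjusted p 0.159 and 0.236). They also failed without Col-0 replicate 2, Col-0 replicate 3 or hy5-215 replicate 1 (adjusted p 0.0543 to 0.197), and IAA14 failed without hy5-215 replicate 1 (0.108). In DESeq2, IAA8 and IAA14 did not pass (0.124 and 0.0635). The shoot markers summed to 49109 to 51319 CPM in hy5-215 against 38571 to 42905 CPM in Col-0 at 22 °C.

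At 28 °C, of 25 members tested, IAA8 was higher in hy5-215, and GH3.5 and IAA29 were lower, where 5.86% of all genes differed by the adjusted p (3.07% higher and 2.79% lower). None reached 2-fold in edgeR, where 1.82% of all genes were called. An unadjusted p under 0.05 was found for 8 of the 25 members and for 2953 of all 15702 genes tested. DESeq2 also called 0. GH3.5 had 56.9, 55.2 and 60.2 CPM in hy5-215 and 90.0, 111 and 129 CPM in Col-0 (log2 fold change −0.94, SE 0.13, adjusted p 0.000147), without overlap and lower in all 6 fits that left out a library. Without Col-0 replicate 1 its change passed 2-fold (−1.07). IAA19 averaged 6.67 CPM in hy5-215 and 9.44 CPM in Col-0 shoots at 28 °C and did not pass. At 22 °C it was not tested in shoots, because it did not pass the filter on low counts. IAA29 had 5.90, 9.08 and 7.23 CPM in hy5-215 and 15.2, 10.7 and 18.2 CPM in Col-0 (−0.96, SE 0.28, adjusted p 0.0466), and it passed only without Col-0 replicate 2 among the 6 fits that left out a library. IAA8 (0.37, adjusted p 0.03) failed in 4 of those fits, the ones without Col-0 replicate 2 or 3 or without hy5-215 replicate 1 or 2 (adjusted p 0.0852 to 0.194). The median log2 fold change of the members was −0.17 at 28 °C and 0.23 at 22 °C, beside values within 0.01 of 0 over all genes.

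Whether the genotypes responded differently to 28 °C was tested as an interaction over the 12 shoot libraries, where 1.03% of all genes passed (0.463% with a negative value). The interaction was negative, that is, the change in hy5-215 was below that in Col-0, in 21 of 25 members, with a median of −0.39 beside 0.00 over all genes. IAA2 and GH3.5 passed. IAA2 had 111, 135 and 198 CPM at 28 °C and 158, 187 and 164 CPM at 22 °C in hy5-215, against 172, 206 and 255 CPM at 28 °C and 132, 122 and 116 CPM at 22 °C in Col-0. The temperatures overlapped in hy5-215 and not in Col-0, and the interaction was −0.99 log2 (SE 0.20, adjusted p 0.012). It was over the threshold without Col-0 22 °C replicate 3 (adjusted p 0.0518) or without hy5-215 28 °C replicate 2 (0.0611). GH3.5 had 56.9, 55.2 and 60.2 CPM at 28 °C and 52.5, 54.0 and 50.6 CPM at 22 °C in hy5-215, against the higher 28 °C levels in Col-0 given above. Its interaction was −0.75 log2 (SE 0.18, adjusted p 0.028), but it passed in only 3 of the 12 fits that left out a library, the ones without Col-0 28 °C replicate 1, hy5-215 28 °C replicate 3 or hy5-215 22 °C replicate 3, with adjusted p of 0.00224 to 0.123 over the 12.

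The number of members past the threshold for this interaction moved with the library left out. So did the number of all genes past it, from 60 to 398 over the same 12 fits, beside 169 in the fit of all 12 libraries. Without Col-0 28 °C replicate 1, in which most members were lowest, 7 passed (IAA1, IAA2, IAA3, IAA4, IAA7, GH3.5 and GH3.6), and without hy5-215 28 °C replicate 3, in which 15 of 25 members were the highest of their group, 5 passed. Without Col-0 22 °C replicate 3 or without hy5-215 28 °C replicate 2 there were 0, without hy5-215 22 °C replicate 3 there were 3, and in the other 7 fits 1. In the fit of all 12 libraries, IAA29 (−1.60, SE 0.59, adjusted p 0.248), IAA19 (−0.76, SE 0.65, adjusted p 0.757) and IAA1 (−1.02, SE 0.33, adjusted p 0.159) did not pass. A different response of these genes in the genotypes was not detected in that fit. IAA1 passed in edgeR with no filter (−1.02, adjusted p 0.0426) and without Col-0 28 °C replicate 1 (−1.31, adjusted p 0.00532).

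**Figure D3:**
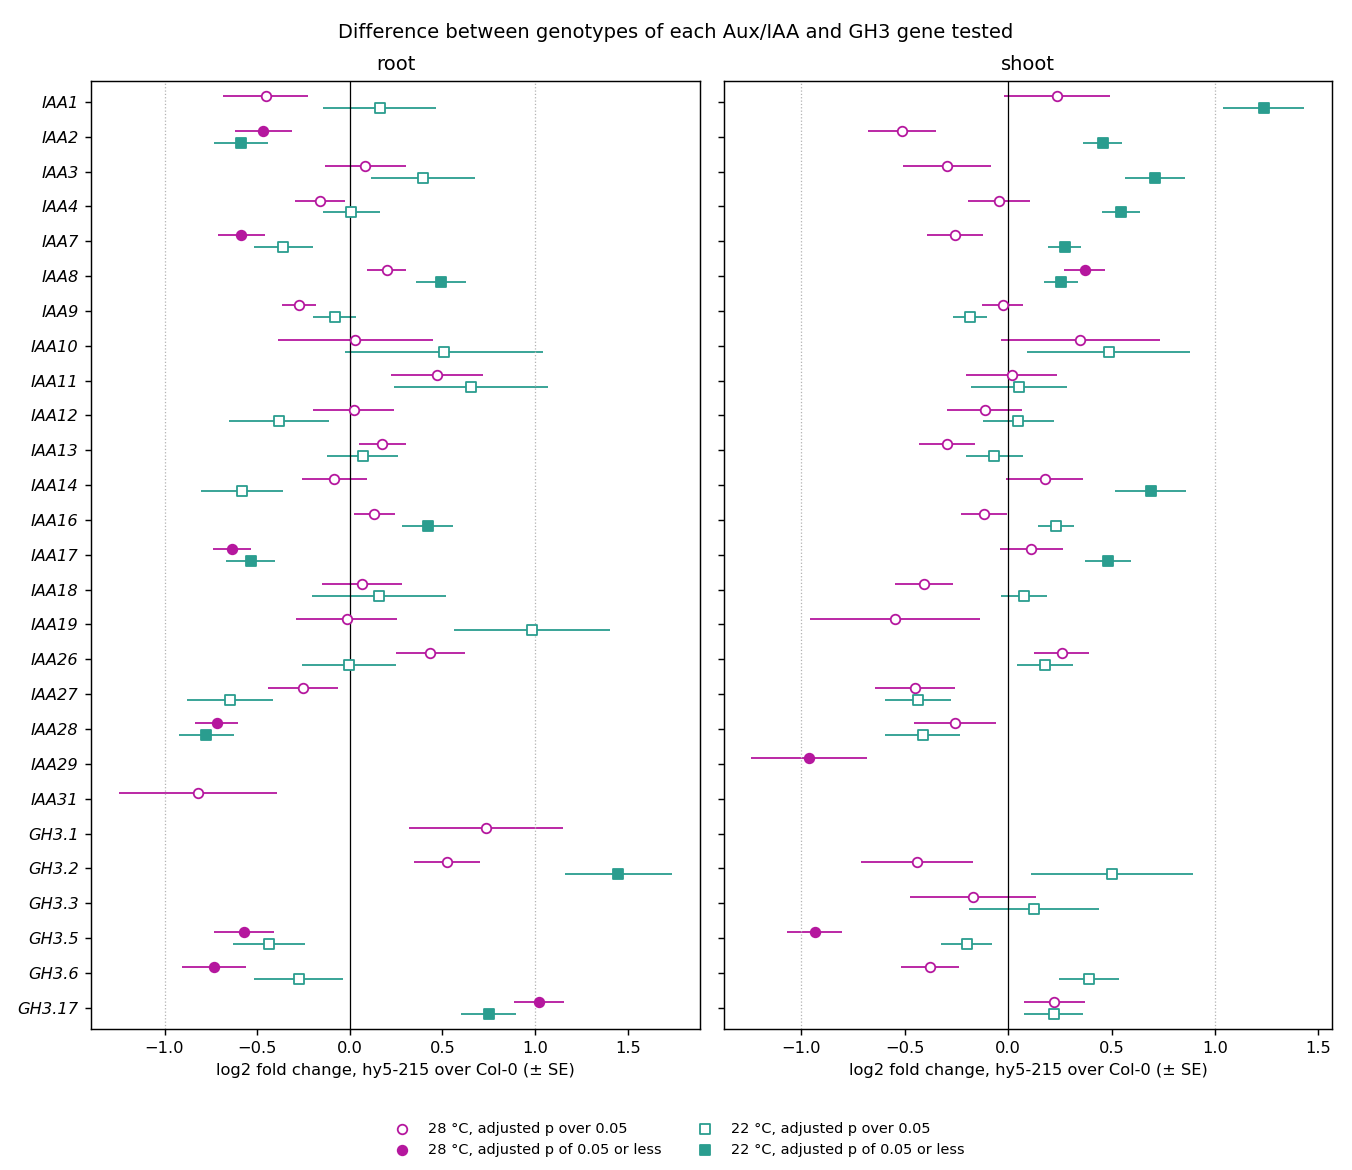
Log2 fold change of hy5-215 over Col-0 for each member tested, with its approximate SE, in root and shoot. Purple circles are 28 °C, green squares are 22 °C, and filled symbols have an adjusted p of 0.05 or less. In the shoot 8 members are filled to the right of 0 at 22 °C, and GH3.5 and IAA29 are filled to the left of 0 at 28 °C.

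In the root of Col-0, the members that passed at 28 °C were again all higher. Of 24 tested, 4 rose at 28 °C (IAA17, IAA19, GH3.2 and GH3.6) and none fell, where 6.33% of all genes changed by the adjusted p (2.62% rose and 3.70% fell). IAA19 alone was called with the 2-fold cutoff, where 2.44% of all genes were called (0.946% as higher). The median log2 fold change of the members was 0.24 beside 0.01 over all genes, and 18 of the 24 were positive. IAA19, IAA10 and IAA31 reached a mean of 10 counts at 28 °C only. IAA19 had 10.5, 10.2 and 8.85 CPM at 28 °C (32, 33 and 28 counts) and 4.22, 2.0 and 5.37 CPM at 22 °C (9, 4 and 8 counts), without overlap (log2 fold change 1.38, SE 0.39, adjusted p 0.0387). Of the 6 fits that left out a library, it passed only without 22 °C replicate 3, and in the others its adjusted p was 0.0586 to 0.195. It did not pass in DESeq2 (adjusted p 0.128). In these roots the 6 root markers summed to 4117 to 4330 CPM at 28 °C against 5488 to 6155 CPM at 22 °C. Taken singly, 4 of the 5 root markers tested had a positive log2 fold change and 1 a negative one (median 0.61). By the adjusted p, 2 root markers rose and 1 fell. The 6 shoot markers summed to 350 to 459 CPM at 28 °C against 627 to 741 CPM at 22 °C, with 1 of the 5 tested positive and 4 negative. By the adjusted p, 1 shoot marker rose and 3 fell, and with the 2-fold cutoff 1 was called higher and 1 lower. The part of the markers in the changes was not tested.

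IAA17, the AXR3 repressor (AT1G04250, chr1:1136078-1138663), had 171, 161 and 186 CPM at 28 °C and 125, 120 and 114 CPM at 22 °C in Col-0 roots (log2 fold change 0.53, SE 0.12, adjusted p 0.00931). The groups did not overlap, and the rise failed only without 22 °C replicate 2 (adjusted p 0.0645). GH3.2 had 16.7, 17.6 and 19.6 CPM at 28 °C and 12.2, 8.0 and 8.72 CPM at 22 °C (0.89, SE 0.26, adjusted p 0.0456). GH3.6 (DFL1, AT5G54510, chr5:22130964-22133688), an auxin-conjugating enzyme, had 38.1, 44.0 and 30.3 CPM at 28 °C and 23.5, 24.5 and 22.8 CPM at 22 °C (0.67, SE 0.19, adjusted p 0.0448). Neither had overlapping groups, but each passed in only 1 of the 6 fits that left out a library, GH3.2 without 22 °C replicate 1 and GH3.6 without 28 °C replicate 3, and in the others the adjusted p was 0.0672 to 0.232. In DESeq2 neither passed (0.168 for GH3.2 and 0.134 for GH3.6). The 20 members that did not pass had log2 fold changes of −0.65 (IAA27) to 0.87 (IAA11).

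In hy5-215 roots, IAA17 was the 1 member of 24 tested that changed by the adjusted p, where 6.05% of all genes changed (3.11% rose and 2.94% fell). It had 104, 112 and 115 CPM at 28 °C and 87.6, 86.1 and 74.2 CPM at 22 °C (log2 fold change 0.41, SE 0.12, adjusted p 0.031), without overlap, and passed only without 22 °C replicate 1 among the 6 fits that left out a library (adjusted p 0.0784 to 0.122 in the others), and it did not pass in DESeq2 (0.0601). The root markers summed to 4468 to 4617 CPM at 28 °C against 3626 to 3956 CPM at 22 °C in hy5-215 roots. The shoot markers summed to 304, 419 and 549 CPM at 28 °C against 328, 355 and 358 CPM at 22 °C there. All 5 shoot markers tested had a positive log2 fold change, and 0 passed the adjusted p. The part of the markers in the changes in hy5-215 roots was not tested. In edgeR 0 members reached 2-fold, where 1.73% of all genes were called, and DESeq2 called 0 as well. An unadjusted p under 0.05 in edgeR was found for 7 of the 24 members and for 3184 of all 16445 genes tested. IAA19 had 7.53, 8.82 and 13.4 CPM at 28 °C and 6.65, 7.73 and 7.98 CPM at 22 °C, with overlapping groups (log2 fold change 0.37, SE 0.30, adjusted p 0.556). GH3.2 had 26.5, 25.9 and 24.4 CPM at 28 °C and 19.2, 22.6 and 38.2 CPM at 22 °C (−0.05). The interaction of genotype and temperature over the 12 root libraries passed for 0 of 26 members in edgeR and in DESeq2, where 1.41% of all genes passed. An unadjusted p under 0.05 in edgeR was found for 1 of the 26 members and for 1780 of all 16982 genes tested. The interaction was −0.99 for IAA19 (SE 0.49, adjusted p 0.481).

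The genotypes were compared in the root as well. At 22 °C, 4 of 23 members were higher in hy5-215 roots (GH3.2, GH3.17, IAA8 and IAA16) and 3 were lower (IAA2, IAA17 and IAA28), where 11.7% of all genes differed by the adjusted p (6.07% higher and 5.65% lower). GH3.2 was called with the 2-fold cutoff, where 5.78% of all genes were called (2.89% as higher). It had 19.2, 22.6 and 38.2 CPM in hy5-215 and 12.2, 8.0 and 8.72 CPM in Col-0 at 22 °C, without overlap (log2 fold change 1.45, SE 0.29, adjusted p 0.00097). At 28 °C it had 26.5, 25.9 and 24.4 CPM in hy5-215 and 16.7, 17.6 and 19.6 CPM in Col-0, again without overlap (0.52, SE 0.18, adjusted p 0.0556). IAA19 averaged 7.45 CPM in hy5-215 and 3.86 CPM in Col-0 roots at 22 °C, without overlap. At 28 °C its means were 9.91 CPM in hy5-215 and 9.86 CPM in Col-0. It did not pass the adjusted p at either temperature. GH3.3 and IAA30 did not pass the filter on low counts at 22 °C, but each was called lower in hy5-215 under some alternatives. GH3.3 had 4, 1 and 2 counts in hy5-215 and 12, 12 and 4 counts in Col-0, and it was called in DESeq2 (log2 fold change −2.62), with no filter (−2.57), in the joint fit (−2.61) and without Col-0 replicate 3, hy5-215 replicate 1 or hy5-215 replicate 3 (−3.26 to −2.54). IAA30 had 4, 4 and 2 counts in hy5-215 and 3, 10 and 10 counts in Col-0, and it was called in the joint fit (−1.90) and without Col-0 replicate 1 (−2.37).

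The organ markers are given for the same roots. At 22 °C the 6 root markers summed to 3626 to 3956 CPM in hy5-215 and 5488 to 6155 CPM in Col-0, and the 6 shoot markers to 328 to 358 CPM in hy5-215 and 627 to 741 CPM in Col-0. Of the 5 shoot and 5 root markers tested there, LHCB1.3 and PSAD1 were called lower and CASP1 higher in hy5-215, and NRT2.1 and FAMA did not pass the filter. At 28 °C the root markers summed to 4468 to 4617 CPM in hy5-215 and 4117 to 4330 CPM in Col-0, and the shoot markers to 304 to 549 CPM in hy5-215 and 350 to 459 CPM in Col-0, with 0 of 10 called in edgeR. Their part in the differences between genotypes was not tested.

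At 28 °C, GH3.17 was higher in hy5-215 roots, and IAA2, IAA7, IAA17, IAA28, GH3.5 and GH3.6 were lower, where 12.3% of all genes differed by the adjusted p (7.07% higher and 5.26% lower). GH3.17 (AT1G28130, chr1:9825169-9828118), which conjugates auxin to glutamate, was the member called, where 4.84% of all genes were called (3.15% as higher). It had 124, 122 and 115 CPM in hy5-215 and 45.0, 68.1 and 66.4 CPM in Col-0 at 28 °C (log2 fold change 1.02, SE 0.13, adjusted p 3.08e-06), and 85.0, 102 and 92.6 CPM in hy5-215 and 50.7, 61.5 and 54.3 CPM in Col-0 at 22 °C (0.75, SE 0.15, adjusted p 0.000922). There was no overlap at either temperature, although the change at 28 °C fell below 2-fold without Col-0 replicate 1 (0.86). IAA28 had 101, 79.9 and 101 CPM in hy5-215 and 164, 163 and 139 CPM in Col-0 roots at 28 °C (−0.72, adjusted p 8.52e-05), and 72.5, 80.3 and 109 CPM in hy5-215 and 156, 145 and 147 CPM in Col-0 at 22 °C (−0.78, adjusted p 0.000635). IAA17 was lower in hy5-215 at both temperatures, by −0.64 at 28 °C (adjusted p 8.38e-05) and −0.54 at 22 °C (adjusted p 0.00804). GH3.17, IAA28 and IAA17 passed the adjusted p at both temperatures in every fit that left out a library. Of the others at 28 °C, IAA7 passed in all 6 such fits, GH3.6 failed without Col-0 replicate 2 (adjusted p 0.0569), IAA2 passed only without Col-0 replicate 3, and GH3.5 only without Col-0 replicate 3 or hy5-215 replicate 3. At 22 °C, IAA2 passed in all 6, IAA8 failed without Col-0 replicate 1 or 2 or hy5-215 replicate 2 (0.0729 to 0.117), and IAA16 passed only without Col-0 replicate 3 or hy5-215 replicate 1.

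The organs were compared in their response to 28 °C within each genotype. In Col-0, the interaction of tissue and temperature, root minus shoot, passed for IAA2 and IAA29 of 27 members tested, where 2.78% of all genes passed (1.65% with a negative value). IAA2 had 85.7, 79.0 and 51.2 CPM at 28 °C and 91.9, 84.5 and 77.8 CPM at 22 °C in Col-0 roots, with overlapping groups, in contrast to the shoot values above, and the interaction was −1.02 log2 (SE 0.22, adjusted p 0.00593). It passed in all 12 fits that left out a library. IAA29 had 0.66, 0.93 and 0.63 CPM at 28 °C and 2.35, 1.0 and 2.01 CPM at 22 °C in Col-0 roots, which is 2 to 5 counts per library and close to the floor. It reached 10 counts in its shoot libraries at 28 °C and in no root library, so it passed the filter through the shoot alone. With 3 counts or fewer in each root library at 28 °C, the fitted interaction of −4.06 log2 (SE 0.84, adjusted p 0.00428) is given as fitted and does not measure the size of a change in the root. DESeq2 gave IAA29 no adjusted p.

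In hy5-215 the interaction of tissue and temperature passed for IAA29 and IAA4 of 26 members tested, where 3.71% of all genes passed (2.40% positive and 1.32% negative). IAA29 had 0.78, 0.26 and 0.76 CPM at 28 °C and 1.48, 1.93 and 3.1 CPM at 22 °C in hy5-215 roots, again 1 to 9 counts per library and 3 or fewer in each at 28 °C. It passed the filter through its shoot libraries here too, and the fitted interaction of −3.05 log2 (SE 0.80, adjusted p 0.0185) measures no size of a change in the root. It failed in 5 of the 12 fits that left out a library (adjusted p 0.052 to 0.0852). IAA4 had 49.9, 66.7 and 61.5 CPM at 28 °C and 56.2, 64.0 and 58.3 CPM at 22 °C in hy5-215 roots, with overlapping groups, against the lower 28 °C levels in hy5-215 shoots. Its interaction was 0.58 log2 (SE 0.17, adjusted p 0.0458), and it passed only without shoot 28 °C replicate 3 or root 28 °C replicate 1 among the 12 fits that left out a library (adjusted p 0.0577 to 0.18 in the others). IAA4 also failed in DESeq2, with library size alone and in the joint fit. In DESeq2, IAA9 passed in its place (−0.44, adjusted p 0.027).

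Other genes of the auxin response pathway were read as lists of 6 TIR1/AFB receptors, 22 ARF factors, 5 TOPLESS corepressors, 12 enzymes that inactivate auxin or release it from its conjugates, and 11 further GH3 genes. Of all these, IAMT1 (AT5G55250), which methylates auxin, was the gene called in a comparison of 28 °C with 22 °C. It had 13.0, 7.78 and 8.78 CPM at 28 °C and 2.96, 3.86 and 3.82 CPM at 22 °C in hy5-215 roots, without overlap (log2 fold change 1.46, SE 0.35, adjusted p 0.00743), where 1.73% of all genes were called. By the adjusted p alone in Col-0 shoots, where 25.0% of all genes changed, 1 of 6 receptors rose (AFB4), 1 of 15 ARF genes tested rose (ARF11) and 1 fell (ARF8), 2 of 8 inactivation genes rose (DAO2 and ILL6) and 1 fell (UGT74D1), 2 of 4 other GH3 genes fell (GH3.10 and GH3.15), and 0 of 5 corepressors passed. In hy5-215 shoots, where 16.9% of all genes changed, ARF11 rose and ARF8, UGT74D1 and GH3.10 fell. In Col-0 roots, where 6.33% of all genes changed, ILL2 alone passed and rose. The median log2 fold change of the ARF genes tested was −0.12 in Col-0 shoots and −0.05 in Col-0 roots, beside 0.28 and 0.24 for the Aux/IAA and GH3 genes and 0.01 over all genes tested in the same libraries.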

How the data were processed

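RNA of 24 libraries (8 groups of 3) was sequenced by 3′Tag-Seq. The authors aligned reads to TAIR10 with HISAT2 and deposited whole-number counts per gene made with HTSeq, and the submitters' processing notes also name FastQC and edgeR. Versions and the use of strand are not given in the sources used here. Groups were taken from the sample titles. The 37 members and the pathway and marker lists were chosen with earlier results of these data known.

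Each comparison was fitted on its own libraries (all 12 of an organ or genotype for interactions) with edgeR 4.0.16 in R 4.3.3, using limma 3.58.1, TMM scaling, filterByExpr (minimum count 10, minimum total 15) and the quasi-likelihood test, with Benjamini-Hochberg adjustment over all genes tested. A gene was called at an adjusted p up to 0.05 with a 2-fold or larger change, and an interaction by the adjusted p alone. The SE is approximate, and was taken as the log2 fold change over the root of its F statistic. CPM uses TMM factors over the 24 libraries. A library with 3 counts or fewer was taken as at the floor, and counting error is covered only as far as the replicates show it. The labels call the 3 libraries of a group biological replicates and do not name separate cultures, so p-values measure the spread between these samples. The scripts were tested on simulated data. Alternatives were DESeq2 1.42.0, library size alone, no filter, a mean of at least 10 counts, the adjusted p alone, the replicate number as a block, 1 fit over all 24 libraries, and leaving out each library.

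Full values are given for members called in a temperature comparison or an interaction and for IAA19, which the study picked, and the other members are given by group, range or count, or beside the comparison that they passed. Genes of the pathway lists are named where they were called or passed the adjusted p. Coordinates, promoters and coding sequences come from RefSeq TAIR10.1, whose gene loci matched 32548 of 33977 identifiers. Copies of the last 300 genomic bases of each annotated gene were sought with blastn 2.17.0+.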

Additional observations from a re-analysis of the deposited data

Results flagged for a closer look

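The change at 28 °C differed between genotypes or organs by a test of the difference itself for 6 results. Between hy5-215 and Col-0 shoots, the interaction was −0.99 log2 for IAA2 and −0.75 log2 for GH3.5. Between root and shoot, it was −1.02 log2 for IAA2 and −4.06 log2 for IAA29 in Col-0, and −3.05 log2 for IAA29 and 0.58 log2 for IAA4 in hy5-215. IAA29 passed the filter on low counts through its shoot libraries alone and had 1 to 9 counts per root library, 3 or fewer at 28 °C, so its values are given as fitted and measure no size of a change in the root. GH3.5 in the shoots and IAA4 in hy5-215 lost the call in most fits that left out 1 library. Groups of 3 were not checked for single outlying samples.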

How the results depend on the processing

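No member described in full changed direction while called, under any alternative run. Of the counts of members called, 69 of 102 values with 1 library left out and 60 of 87 values under other alternatives stayed within 1.5 times the count reported. At 28 °C against 22 °C, the 3 members called in Col-0 shoots became 7 with no filter on low counts. They became 9 by the adjusted p alone and 2 to 5 with 1 library left out. All genes called there went from 833 to 1046, 3920 and 751 to 1095 under the same settings. The 1 called in hy5-215 shoots became 0 in DESeq2, 5 by the adjusted p alone and 0 to 1 with 1 library left out. All genes called there went from 563 to 441, 2644 and 506 to 620 under the same settings. The 1 called in Col-0 roots became 0 in DESeq2, 4 by the adjusted p alone and 0 to 1 with 1 library left out. All genes called there went from 384 to 286, 996 and 250 to 424 under the same settings. In hy5-215 roots the count of 0 became 1 by the adjusted p alone, and that of all genes went from 285 to 995.

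For hy5-215 against Col-0 in shoots, the count at 28 °C was 1 with library size alone and 1 with no filter. It was 3 by the adjusted p alone and 0 to 1 with 1 library left out. All genes called there went from 285 to 292, 422, 920 and 223 to 347 under the same settings. At 22 °C the count of members was 8 by the adjusted p alone, and that of all genes went from 269 to 1454. In roots at 28 °C the count of members was 7 by the adjusted p alone and 0 to 1 with 1 library left out. All genes called went from 800 to 2035 and 692 to 937. At 22 °C the count of members was 2 in DESeq2, 2 with no filter, 3 in the joint fit, 7 by the adjusted p alone and 1 to 2 with 1 library left out. All genes called went from 903 to 776, 1178, 1241, 1831 and 789 to 1023 under the same settings. The members added at 22 °C in DESeq2, with no filter, in the joint fit and with 1 library left out (GH3.3, IAA30 or both) were lower in hy5-215. The 2 members of the shoot genotype interaction became 1 in DESeq2, with library size alone and in the joint fit, 7 with no filter, and 0 to 7 with 1 library left out. All genes past that interaction went from 169 to 110 in DESeq2, 180 with library size alone and 100 in the joint fit. They were 366 with no filter and 60 to 398 with 1 library left out. The 2 members of the Col-0 tissue interaction became 1 in DESeq2, where all genes past it went from 498 to 398. The 2 of the hy5-215 tissue interaction became 1 with library size alone, in the joint fit and with a minimum mean of 10 counts, and 0 to 3 with 1 library left out. In DESeq2 that count stayed 2, with IAA9 in place of IAA4. All genes past the hy5-215 tissue interaction went from 674 to 660 with library size alone, 613 in the joint fit and 510 in DESeq2. They were 673 with a minimum mean of 10 counts and 522 to 725 with 1 library left out. Between Col-0 root and shoot, 10 members became 18 by the adjusted p alone, and 8 to 12 with 1 library left out. All genes called went from 6779 to 10246 and 6749 to 7498. By construction, more genes are tested without a filter and the adjusted p alone is the looser rule, and the cause of the other differences was not tested.

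With library size alone, the share of all called genes that were higher was 27.7% against 40.1% with TMM for hy5-215 over Col-0 shoots at 22 °C, 69.4% against 55.0% for the shoot genotype interaction, 53.0% against 40.8% for the Col-0 tissue interaction and 61.5% against 41.8% for root over shoot. Same-numbered replicates deviated together by correlations of −0.06 to 0.14, so the numbers were not taken to pair the samples. With the replicate block, the 1 member called in Col-0 roots became 0 (IAA19, adjusted p 0.08), and all genes called went from 384 to 323. The 2 members of the shoot genotype interaction became 4 (IAA2, IAA3, IAA7 and GH3.5), and all genes past it went from 169 to 266. With 1212281 to 3781032 counts per library, members near or under 10 counts rest on few reads, and 9 members passed the filter in no comparison. Alternatives with no filter, DESeq2 or another set of libraries tested some members that the main fits did not.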
